A study of Mus musculus with 8 samples.

Results

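The genes described here carry the NODAL and ACTIVIN signal in mouse pluripotent stem cells: the ligand genes Nodal, Gdf3, Inhba and Inhbb, the antagonist genes Lefty1, Lefty2 and Fst, the co-receptor gene Tdgf1, the receptor gene Acvr2b and the inhibitory gene Smad7. These 10 genes were chosen by name from 23022 gene symbols in the files. Because some libraries list Lefty1 and Lefty2 as 1 joint entry, their values were summed in every library, which left 9 units among 11878 that were tested. The series holds 8 RNA-seq libraries in 4 groups of 2. Dnd1-KD is the 129/Ola embryonic stem (ES) cell line E14tg2a, wild type by its genotype label and labelled as a Dnd1 knockdown, at passages 10 to 12; the knockdown method is not given in the sources used here. CDGC1 and CDGC6 are separate stem cell lines from nascent teratoma cells of new-born testis in Dnd1ter/ter mice, with the strain label 129Sv/Dnd1ter/ter/Oct4deltaPE-GFP, at passages 15 to 18. The control is E14tg2a itself (129/Ola, wild type), at passages 10 to 12. All 4 groups shared serum and LIF, a cytokine that holds mouse ES cells in self-renewal. Each derived group is 1 line, strain, genotype, origin and passage differ together between the derived lines and control, and their parts cannot be told apart.

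NODAL and the ACTIVINs are ligands of the TGF-beta family that bind type II receptors such as ACVR2B and a type I receptor, which then activates SMAD2 and SMAD3. NODAL and GDF3 need the co-receptor encoded by Tdgf1 (also called Cripto), while the ACTIVINs, dimers of the inhibin beta subunits encoded by Inhba and Inhbb, do not. The pathway induces its own antagonists, the LEFTY proteins, which block NODAL, and SMAD7, which blocks receptors from inside the cell, while follistatin, encoded by Fst, binds ACTIVINs. In mouse embryos the signal patterns the epiblast and forms the primitive streak, and it is known to be active in ES cells as well.

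Values are FPKM, a level that divides fragments by transcript length and by the mapped fragments of the library. Differences are of log2(FPKM + 1), with their standard error (SE), and adjusted p-values come from limma across all 11878 units with Benjamini-Hochberg adjustment and a threshold of 0.05. That scale understates changes of genes near or below 1 FPKM. Nothing in the labels ties the paired libraries to separate cultures, and the p-values then measure a spread between libraries that may be technical only. Fragment numbers implied by the intervals in the files sum to 10.7 M to 18.0 M a library. They did not always follow the level, so this sum is not a measured depth. For Nodal they were 1522 at 81.9 FPKM in the first CDGC1 library and 4267 at 64.4 FPKM in the second. Dnd1 shared an entry with Hars in the Dnd1-KD libraries, with a joint level of 57.6 and 53.9 FPKM there and a summed level of 65.8 and 65.04 FPKM in control, so the knockdown itself could not be read from these files. The pluripotency label was checked with 6 general markers, among them Pou5f1, which was at 531 and 457 FPKM in Dnd1-KD, 951 and 1027 in CDGC1, 1125 and 1339 in CDGC6 and 944 and 934 in control. Of the 6, all were lower than control in Dnd1-KD, where 15.5% of all units were called lower. In CDGC1 3 were lower and 1 higher, against 27.0% and 23.5% of all units. Those lower in CDGC1 were Sox2 (77.3 FPKM in CDGC1 against 163 in control), Utf1 (74.4 against 202) and Sall4, and the one higher was Lin28a. In CDGC6 their median log2 difference from control was -0.05. In CDGC1 all 9 naive markers were lower than in control, against 27.0% of all units. Their summed level was 5.63 to 6.28 FPKM in CDGC1 against 628 to 657 FPKM in control. In Dnd1-KD 5 of the 9 were lower (15.5% of all units), and their sum was 376 to 477 FPKM. In CDGC6 1 was higher (8.46% of all units), and the sum was 470 to 625 FPKM. Primed markers summed to 63.1 to 72.6 FPKM in Dnd1-KD, 477 to 596 in CDGC1, 379 to 434 in CDGC6 and 143 to 175 in control. Markers of Sertoli and Leydig cells, the somatic cells of the testis, summed to 6.37 to 9.71 FPKM in CDGC1 against 2.33 to 2.96 FPKM in control.

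Across the comparisons, the antagonist pair Lefty1 and Lefty2 and the co-receptor gene Tdgf1 were lower in Dnd1-KD and higher in both derived lines than in control. Fst and Inhba were also higher in both derived lines, while Gdf3 was lower in CDGC1 and not called in CDGC6. In Dnd1-KD 3 of the 9 units passed the test, 1 higher and 2 lower, against 36.2% of all units tested, so this share is near the background. The counts that follow for the derived lines include Inhba, which was kept by the filter on low values because it was high there, so they are descriptive. In CDGC1 all 9 passed, 6 higher and 3 lower, against 50.5% of all units. In CDGC6 5 passed, all higher, against 18.7% of all units, and without the first control library 2 passed. Between CDGC1 and CDGC6 6 passed, 4 higher and 2 lower in CDGC1, against 47.1% of all units. The median log2 difference of the members was -0.31 in Dnd1-KD (0.02 over all units), 0.75 in CDGC1 (-0.03) and 0.42 in CDGC6 (-0.01). The 3 comparisons with control share its 2 libraries, so their results are not independent of each other.

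**Figure D1:**
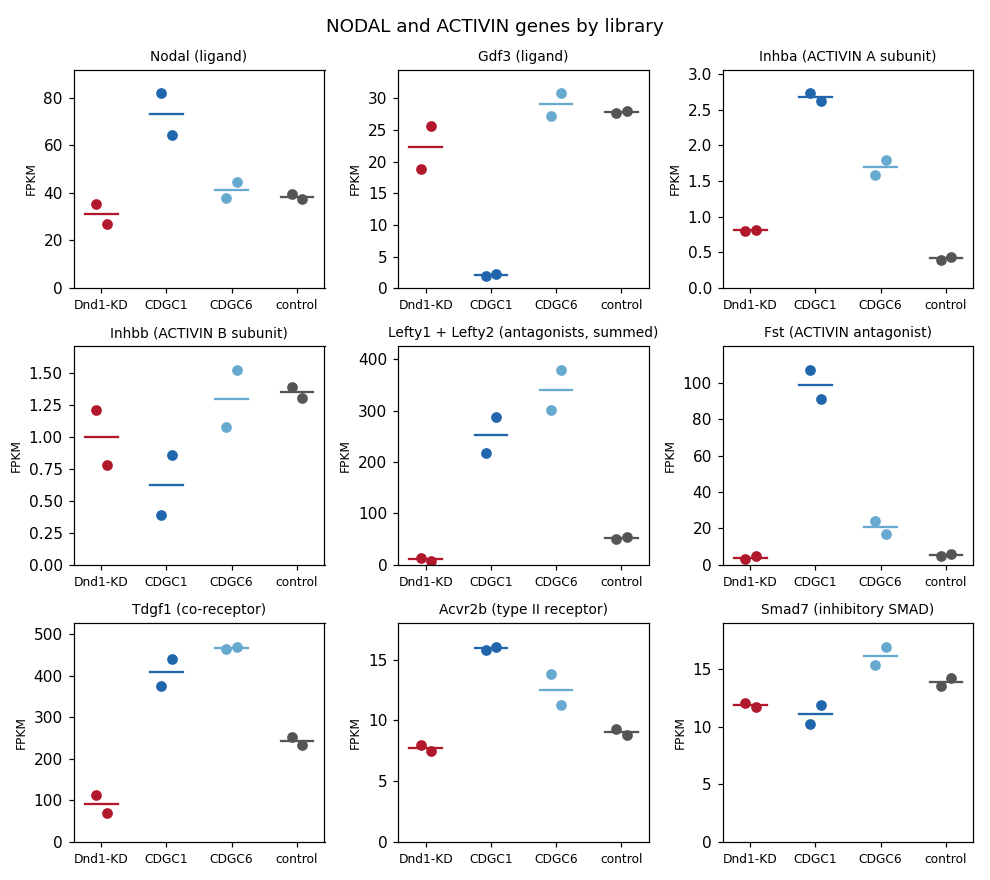
Level of each NODAL or ACTIVIN gene in FPKM (vertical axis, linear, from 0) in the 2 libraries of each group (points) with the group mean (line). Lefty1 + Lefty2 stood at 8.08 and 14.0 FPKM in Dnd1-KD and between 217 and 379 FPKM in the 4 derived libraries, against 50.8 and 55.1 in control, and Gdf3 was low in CDGC1 alone among the groups.

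Among the ligands, Nodal (chromosome 10, 61417972 to 61425338, plus strand, mm10) was at 35.5 and 26.9 FPKM in Dnd1-KD, 81.9 and 64.4 in CDGC1 and 37.7 and 44.7 in CDGC6, against 39.5 and 37.3 in control. Both CDGC1 libraries lay above the other 6, and the CDGC6 libraries overlapped those of control. Nodal rose in CDGC1 to 73.2 ± 12.3 FPKM, against 38.4 ± 1.51 FPKM in control (SD, n = 2 each), a log2 difference of 0.90 ± 0.17 (SE, adjusted p = 0.00599). It was also higher in CDGC1 than in CDGC6 (0.81 ± 0.17, adjusted p = 0.0101). Leaving out the first CDGC6 library ended that call (adjusted p = 0.0552). The differences from control of CDGC6 (0.09 ± 0.17, adjusted p = 0.729) and of Dnd1-KD (-0.31 ± 0.17, adjusted p = 0.213) did not pass. The 2 CDGC1 libraries differed by more than their own deposited intervals, 77.7 to 86.1 FPKM in the first and 62.5 to 66.4 FPKM in the second, so the spread between libraries exceeded the counting error that the authors' intervals express.

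Gdf3 encodes a NODAL-like ligand of early embryos and ES cells and lies on chromosome 6 (122605403 to 122610087, minus strand). It was at 18.9 and 25.7 FPKM in Dnd1-KD, 1.91 and 2.30 in CDGC1 and 27.3 and 30.9 in CDGC6, against 27.8 and 28.1 in control. The CDGC1 libraries were far below all others, while the CDGC6 libraries lay on either side of control. Gdf3 was 13.3-fold lower in CDGC1 than in control (log2 difference -3.22 ± 0.15, adjusted p = 2.79e-05) and 13.8-fold lower in CDGC1 than in CDGC6 (-3.28 ± 0.15, adjusted p = 3.46e-05). In CDGC6 the difference from control was 0.05 ± 0.15 (adjusted p = 0.834), and in Dnd1-KD it was -0.33 ± 0.15 (adjusted p = 0.146). Gdf3 is therefore the member for which the 2 derived lines stood furthest apart. Within a library Nodal exceeded Gdf3 by 1.88- and 1.05-fold in Dnd1-KD, by 42.9- and 28.0-fold in CDGC1 and by 1.38- and 1.45-fold in CDGC6, against 1.42- and 1.33-fold in control.

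The ACTIVIN subunit genes had low levels, at most 2.73 FPKM in any library. Inhba (chromosome 13) was at 0.806 and 0.818 FPKM in Dnd1-KD, 2.73 and 2.63 in CDGC1 and 1.59 and 1.80 in CDGC6, against 0.394 and 0.440 in control. Every Dnd1-KD and derived library lay above both control libraries, and Inhba met the filter on low values through the derived lines alone, so its differences from control there are not independent of the filter. It was 6.43-fold higher in CDGC1 (log2 difference 1.38 ± 0.08, adjusted p = 6.58e-05) and 4.06-fold higher in CDGC6 (0.93 ± 0.08, adjusted p = 0.00206) than in control. With no filter the adjusted p-values were 0.000124 in CDGC1 and 0.00301 in CDGC6. With pseudocounts of 0.1 and 5 the log2 difference was 2.43 and 0.50 in CDGC1 and 1.79 and 0.31 in CDGC6. Inhba was also higher in CDGC1 than in CDGC6 (0.45 ± 0.08, adjusted p = 0.00600; 0.0514 with only these 2 groups fitted). In Dnd1-KD the difference was 0.36 ± 0.08 (adjusted p = 0.0208), or 0.82 and 0.10 with those pseudocounts. That last call ended without any 1 of the 4 Dnd1-KD and control libraries (adjusted p = 0.0727 to 0.136) and with quantile normalization (0.0816), and the deposited interval of the first Dnd1-KD library, 0.599 to 1.01 FPKM, overlapped that of the second control library, 0.238 to 0.642 FPKM.

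Inhbb, the subunit gene of ACTIVIN B on chromosome 1, was at 1.21 and 0.784 FPKM in Dnd1-KD, 0.390 and 0.860 in CDGC1 and 1.08 and 1.53 in CDGC6, against 1.39 and 1.31 in control. The CDGC1 pair spread widely, and its lower library set the group's mean. The difference of CDGC1 from control was -0.55 ± 0.19 with an adjusted p = 0.0486, just past the threshold. It did not pass in 13 of 17 alternatives, among them those without the first CDGC1 library (-0.34, adjusted p = 0.196), without either control library (adjusted p = 0.164 and 0.133) or with quantile normalization (-0.16, adjusted p = 0.473). Inhbb passed in no other comparison, but leaving out the second CDGC1 library brought CDGC1 against CDGC6 past the threshold (adjusted p = 0.0283, against 0.0641 with all libraries).

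The LEFTY antagonists varied over a wide range of levels across the 4 groups. Lefty2 (180893108 to 180899103) and Lefty1 (180935022 to 180938400) lie next to each other on the plus strand of chromosome 1. The main transcripts of the pair are identical at 83.7% of 1534 aligned bases, with a longest identical run of 140 bases, so short reads from parts of them cannot be assigned to 1 gene. Their summed level was 14.0 and 8.08 FPKM in Dnd1-KD, 217 and 288 in CDGC1 and 301 and 379 in CDGC6, against 50.8 and 55.1 in control. No library of Dnd1-KD or of a derived line fell inside the control range. The pair was 4.80-fold lower in Dnd1-KD than in control, 11.05 ± 4.195 against 53.0 ± 3.03 FPKM (SD, n = 2 each; log2 difference -2.21 ± 0.26, adjusted p = 0.00282). It was 4.76-fold higher in CDGC1 (2.22 ± 0.26, adjusted p = 0.000888) and 6.41-fold higher in CDGC6 (2.65 ± 0.26, adjusted p = 0.00266) than in control. CDGC1 and CDGC6 did not differ beyond their spread (-0.43 ± 0.26, adjusted p = 0.221), so the order of levels was both derived lines, then control, then Dnd1-KD. These 3 calls against control held in all 18 alternatives tried, with adjusted p-values of 0.000531 to 0.0260.

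The files separate Lefty1 from Lefty2 in 4 libraries. In Dnd1-KD, Lefty1 had levels of 9.70 and 5.47 FPKM and Lefty2 of 4.32 and 2.61 FPKM. In the first CDGC1 library Lefty1 was at 190.7 and Lefty2 at 26.1 FPKM, and in the second CDGC6 library they were at 243 and 136 FPKM. Lefty1 was thus the higher gene in each of these libraries, and Lefty2 made up 30.8% and 32.3% of the sum in Dnd1-KD, 12.0% in CDGC1 and 35.8% in CDGC6. Both control libraries list the pair jointly, so no comparison with control could be made for either gene alone.

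**Figure D2:**
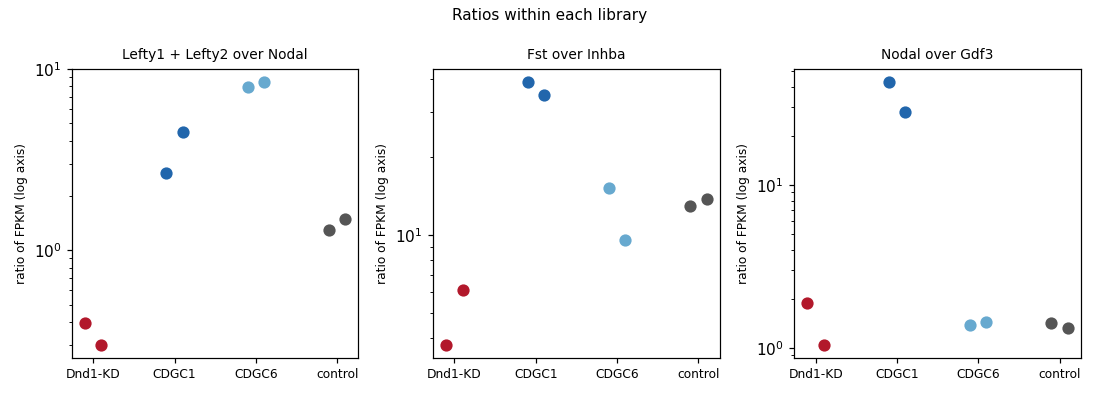
Ratio of FPKM between members within each library (vertical axis, log scale), 1 point per library and 4 groups along the horizontal axis. Lefty1 + Lefty2 over Nodal was 0.395 and 0.301 in Dnd1-KD, 2.65 and 4.47 in CDGC1 and 7.98 and 8.49 in CDGC6, against 1.29 and 1.48 in control, and Nodal over Gdf3 stood apart in CDGC1.

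Set against the ligand they block, the Lefty pair was below Nodal in Dnd1-KD and above it elsewhere. The ratio of the Lefty sum to Nodal was 0.395 and 0.301 in Dnd1-KD, 2.65 and 4.47 in CDGC1 and 7.98 and 8.49 in CDGC6, against 1.29 and 1.48 in control. The 4 groups did not overlap in this ratio, which is given as a description with no test.

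Fst (chromosome 13, 114452290 to 114458951, minus strand), whose product binds and neutralises ACTIVINs, was at 3.03 and 4.999 FPKM in Dnd1-KD, 107 and 90.9 in CDGC1 and 24.1 and 17.1 in CDGC6, against 5.08 and 6.08 in control. The derived libraries were all above the ES cell libraries, and those of CDGC1 were above those of CDGC6. Fst was 17.7-fold higher in CDGC1 than in control (log2 difference 3.92 ± 0.24, adjusted p = 6.50e-05), the largest rise of any member in any comparison. It was 3.69-fold higher in CDGC6 than in control (1.70 ± 0.24, adjusted p = 0.00817), though not without the first control library (adjusted p = 0.0604). It was 4.80-fold higher in CDGC1 than in CDGC6 (2.22 ± 0.24, adjusted p = 0.000708). The difference of Dnd1-KD from control did not pass (-0.42 ± 0.24, adjusted p = 0.218). Fst exceeded Inhba 3.76- and 6.11-fold in Dnd1-KD, 39.1- and 34.6-fold in CDGC1 and 15.1- and 9.54-fold in CDGC6, against 12.9- and 13.8-fold in control.

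Fibroblasts and feeder cells are known to express Fst and Inhba, so their markers are given beside these 2 genes. The list of 10 fibroblast or feeder markers summed to 19.2 to 20.6 FPKM in Dnd1-KD, 59.0 to 64.8 in CDGC1 and 48.8 to 72.4 in CDGC6, against 12.5 to 13.7 in control. Of the 8 that were tested, 6 were higher and 1 lower in CDGC1, 7 were higher in CDGC6 and 2 in Dnd1-KD. Over all units 50.5%, 18.7% and 36.2% were called in these comparisons. Col1a2, Prrx1 and Postn met the filter on low values only through the derived lines, so the counts there are descriptive. Col1a2, a collagen chain, was at 8.52 and 8.64 FPKM in CDGC1 and 5.67 and 8.11 in CDGC6, against 0.381 and 0.391 in control. Lum, a matrix proteoglycan of fibroblasts, was listed at 0 in both CDGC6 libraries, and reached 0.0563 FPKM at most in any library. S100a4, joined with S100a3 in 1 unit, was the largest part of the summed markers in each derived library. That unit was at 28.5 and 23.7 FPKM in CDGC1 and 20.7 and 36.6 in CDGC6. The summed markers overlapped between CDGC1 and CDGC6, and the part of such cells in the levels of Fst and Inhba was not tested. In bulk RNA, fewer expressing cells and less RNA per cell cannot be told apart.

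The co-receptor gene Tdgf1 (chromosome 9, 110939603 to 110946158, minus strand) had the highest level of all members in every library. It was at 112 and 70.1 FPKM in Dnd1-KD, 376 and 440 in CDGC1 and 464 and 470 in CDGC6, against 252 and 234 in control. The groups kept the order of the Lefty pair, with the derived lines highest, control between and Dnd1-KD lowest, and did not overlap. Tdgf1 was 2.67-fold lower in Dnd1-KD than in control, 90.9 ± 29.4 against 243 ± 12.9 FPKM (log2 difference -1.45 ± 0.21, adjusted p = 0.00469). It was 1.68-fold higher in CDGC1 (0.74 ± 0.21, adjusted p = 0.0257) and 1.92-fold higher in CDGC6 (0.94 ± 0.21, adjusted p = 0.0301) than in control. Both of these rises kept their size but no longer passed when either library of the derived line or of control was left out, with adjusted p-values of 0.0504 to 0.108 for CDGC1 and of 0.0931 to 0.149 for CDGC6. CDGC1 and CDGC6 did not differ beyond their spread (-0.20 ± 0.21, adjusted p = 0.469). In Dnd1-KD, where Tdgf1 and the Lefty pair fell, all 6 general pluripotency markers were also lower, against 15.5% of all units. These markers summed to 809 to 960 FPKM in Dnd1-KD against 1607 to 1614 FPKM in control. Of the 7 tested markers of extraembryonic endoderm, 5 were higher in Dnd1-KD, against 20.7% of all units. Gata4 and Gata6 among them would not have met the filter on low values without the Dnd1-KD libraries, so this count is descriptive. The 10 listed summed to 91.4 to 105.7 FPKM in Dnd1-KD against 48.4 to 50.3 FPKM in control. The part of either marker set in the fall of Tdgf1 and the Lefty pair was not tested. A processed pseudogene, Tdgf1-ps1 on chromosome 16, matches the main Tdgf1 transcript at 98.8% of 512 bases, and whether its reads are part of the Tdgf1 value was not tested.

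Acvr2b (chromosome 9, 119402118 to 119434995, plus strand), a type II receptor for ACTIVINs and NODAL, was at 7.96 and 7.45 FPKM in Dnd1-KD, 15.8 and 16.1 in CDGC1 and 13.8 and 11.2 in CDGC6, against 9.26 and 8.83 in control. The order of groups was again the derived lines, control and Dnd1-KD, without overlap. Acvr2b rose 1.76-fold in CDGC1 (log2 difference 0.75 ± 0.11, adjusted p = 0.00190), which held in all alternatives. The difference of CDGC6 from control (0.42 ± 0.11, adjusted p = 0.0451) ended without any 1 of 7 libraries, including either control library (0.170 and 0.217) and the first CDGC6 library (0.104). That between CDGC1 and CDGC6 (0.33 ± 0.11, adjusted p = 0.0458) likewise ended without any 1 of 7 libraries (up to 0.148), and neither passed with no filter on low values (0.0549 and 0.0562). In Dnd1-KD the difference of -0.21 ± 0.11 did not pass (adjusted p = 0.183), but did so with quantile normalization (-0.32, adjusted p = 0.0443). Acvr2b, Fst and Inhba each overlap an annotated antisense gene, and the library kit does not mark strand, so reads of the 2 strands cannot be told apart there.

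The promoters of Nodal, Tdgf1 and Acvr2b are shown because these 3 genes, a ligand, its co-receptor and a receptor, were all higher in CDGC1 than in control. The RefSeq start is that of the locus in the files for Nodal and Tdgf1, while the Acvr2b locus begins at a different base in nearly every library. Each run is 300 bases long and ends just past the start (RefSeq, GRCm38.p6), at chr10:61417722-61418021 on the plus strand, chr9:110946109-110946408 on the minus strand and chr9:119401928-119402227 on the plus strand. Capitals mark matches to the SMAD-binding sequence CAGAC on either strand.
Nodal: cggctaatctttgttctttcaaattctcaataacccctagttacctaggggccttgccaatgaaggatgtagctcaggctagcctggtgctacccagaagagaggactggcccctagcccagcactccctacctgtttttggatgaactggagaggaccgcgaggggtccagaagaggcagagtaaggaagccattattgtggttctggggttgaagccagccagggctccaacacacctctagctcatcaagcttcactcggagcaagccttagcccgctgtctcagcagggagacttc
Tdgf1: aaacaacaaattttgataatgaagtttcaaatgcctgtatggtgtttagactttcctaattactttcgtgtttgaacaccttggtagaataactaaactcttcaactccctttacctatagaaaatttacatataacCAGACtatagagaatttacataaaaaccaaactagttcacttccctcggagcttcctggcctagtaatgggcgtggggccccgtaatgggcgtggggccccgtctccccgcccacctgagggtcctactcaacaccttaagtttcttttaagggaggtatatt
Acvr2b: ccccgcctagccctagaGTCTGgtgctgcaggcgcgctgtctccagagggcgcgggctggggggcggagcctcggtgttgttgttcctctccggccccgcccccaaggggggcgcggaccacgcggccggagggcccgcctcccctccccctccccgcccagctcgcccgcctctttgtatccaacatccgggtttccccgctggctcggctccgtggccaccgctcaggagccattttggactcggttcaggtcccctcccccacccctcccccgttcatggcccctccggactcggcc

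The CAGAC sequence was present once in the Tdgf1 promoter, from -113 to -109, and once in that of Acvr2b, from -233 to -229 as its reverse complement. It was in 49.6% of the 32851 promoters of the same length. The FOXH1 sequence AATNCACA, for the forkhead factor that joins SMAD2 at NODAL targets, was in none of the 3 windows and in 3.601% of all promoters. The SMAD palindrome GTCTAGAC was also in none of the 3 and in 0.213% of all, and it shares no position with a CAGAC match. The promoters differed in base composition, with 54.0% G and C in Nodal, 41.7% in Tdgf1 and 73.3% in Acvr2b.

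Smad7 (chromosome 18), the inhibitory SMAD that the pathway induces, varied least among the members with a level above 5 FPKM in every library. It was at 12.0 and 11.8 FPKM in Dnd1-KD, 10.3 and 11.9 in CDGC1 and 15.4 and 17.0 in CDGC6, against 13.5 and 14.2 in control. The CDGC6 libraries were above the other 6 and those of Dnd1-KD and CDGC1 below control. Smad7 was lower in CDGC1 than in CDGC6 (log2 difference -0.51 ± 0.10, adjusted p = 0.00637), which held in all alternatives. Its fall in CDGC1 against control (-0.31 ± 0.10, adjusted p = 0.0378) ended without the first CDGC1 library (0.123) or any 1 of the control and Dnd1-KD libraries (0.0591 to 0.184), and with only the 2 groups fitted (0.0709). The differences from control of CDGC6 (0.20 ± 0.10, adjusted p = 0.184) and Dnd1-KD (-0.21 ± 0.10, adjusted p = 0.141) did not pass, though that of Dnd1-KD did with quantile normalization (adjusted p = 0.0348) and with only these 2 groups fitted (0.0459). Smad7 thus did not follow the Lefty pair, which is likewise known as a target of the pathway.

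**Figure D3:**
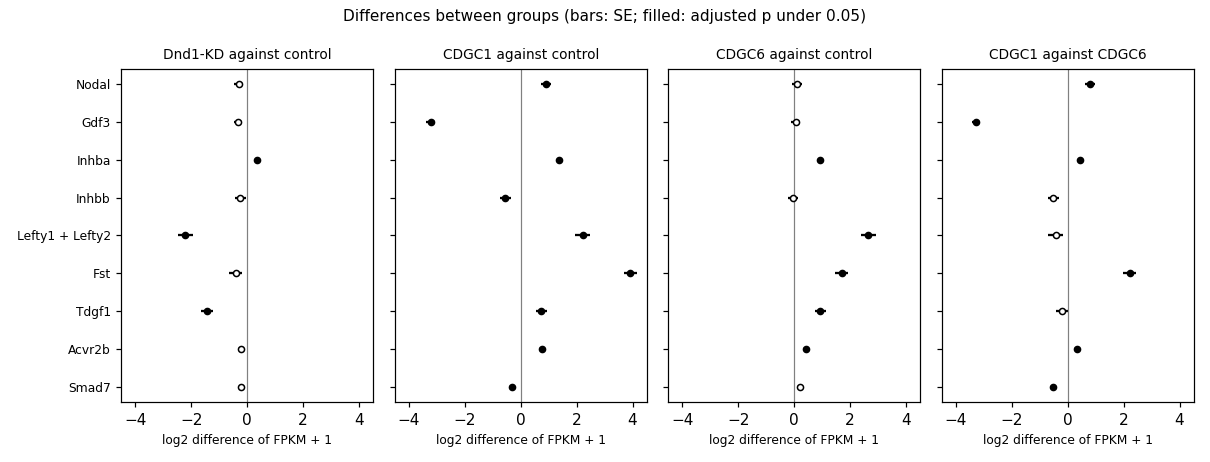
Difference of log2(FPKM + 1) for each gene (horizontal axis, points, bars are SE, filled where the adjusted p is under 0.05) in the 4 comparisons, each in its own panel. Lefty1 + Lefty2 lay at -2.21 in Dnd1-KD and at 2.22 and 2.65 in CDGC1 and CDGC6, and Gdf3 at -3.22 in CDGC1 and 0.05 in CDGC6.

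The rest of the pathway was read from a list of 41 further genes, of which 35 passed the filter on low values. In Dnd1-KD 11 were higher and 3 lower than in control, in CDGC1 21 and 3, and in CDGC6 7 passed, all higher, while 15 were higher and 5 lower in CDGC1 than in CDGC6. Set against the 36.2% and 18.7% of all units called, 14 of 35 in Dnd1-KD and 7 of 35 in CDGC6 are shares near the background. In CDGC1 24 of 35 passed, against 50.5% of all units, and between the derived lines 20 of 35, against 47.1%. Cfc1, Cer1, Tgfbr3, Gsc, Lhx1, Foxa2 and Mixl1 met the filter on low values only through the derived lines, so these 2 counts are descriptive. With no filter they were 23 and 19. No excess was tested in any comparison. The median difference of the list was 0.17 in Dnd1-KD, 0.52 in CDGC1 and 0.10 in CDGC6. Without either control library the counts called were 8 in Dnd1-KD and 2 in CDGC6. Of the receptor and co-receptor genes, 4 of 7 tested were higher in Dnd1-KD and 5 in CDGC1, and their median difference in CDGC6 was 0.09. These include genes whose products chiefly serve other ligands of the TGF-beta family, among them Tgfbr1, Tgfbr2, Tgfbr3 and Acvr1. Acvr1b, a type I receptor gene for NODAL and ACTIVINs, passed in no comparison (0.29 ± 0.14 in Dnd1-KD, adjusted p = 0.160). The type II receptor gene Tgfbr2 was at 3.19 ± 0.239 FPKM in Dnd1-KD and 1.08 ± 0.0435 FPKM in control (SD, n = 2 each; 1.01 ± 0.09, adjusted p = 0.00139). Acvr1, a type I receptor gene, was at 11.01 ± 1.30 FPKM in CDGC1 and 2.89 ± 0.0374 FPKM in control (1.62 ± 0.11, adjusted p = 0.000110), and Acvr2a, the other ACTIVIN type II receptor gene, was 2.71-fold higher in CDGC1 than in CDGC6 (1.22 ± 0.09, adjusted p = 0.000203).

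Among SMADs and their partners 5 of 13 were higher and 1 lower in Dnd1-KD, 4 and 1 in CDGC1, and 3 higher in CDGC6. Against 36.2%, 50.5% and 18.7% of all units in these comparisons, the share in CDGC1 was below the background, those in Dnd1-KD and CDGC6 were not far above it, and nothing is read from these counts. Smurf1, a ubiquitin ligase that acts on receptors and SMADs, was 1.64-fold higher in Dnd1-KD than in control (0.66 ± 0.07, adjusted p = 0.00248). Drap1, a transcriptional repressor that limits NODAL signalling in mouse embryos, was at 142 ± 0.588 FPKM in CDGC6 and 76.9 ± 5.26 FPKM in control (0.88 ± 0.08, adjusted p = 0.00232). Foxh1 was at 24.3 and 25.1 FPKM in Dnd1-KD, 79.0 and 65.1 in CDGC1 and 53.3 and 40.8 in CDGC6, against 30.7 and 30.3 in control. It is named after its values were seen, as the factor of the FOXH1 sequence above.

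All 8 tested genes known as targets in the embryo were higher in CDGC1, where 50.5% of all units were called. In CDGC6 4 were higher, against 18.7% of all units called, and in Dnd1-KD 1 was higher and 1 lower, against 36.2%. Gsc, Lhx1, Foxa2 and Mixl1 met the filter on low values only through the derived lines, so the CDGC1 count is descriptive. Eomes, a streak and endoderm factor, was at 74.2 ± 8.26 FPKM in CDGC1 and 11.9 ± 4.88 in CDGC6, against 3.31 ± 0.319 in control (CDGC1 4.12 ± 0.25, adjusted p = 6.63e-05; CDGC6 1.53 ± 0.25, adjusted p = 0.0127). Pmepa1, a feedback inhibitor of SMAD signalling, was 4.96-fold higher in CDGC1 than in control (2.08 ± 0.12, adjusted p = 5.28e-05) and 3.42-fold higher in CDGC1 than in CDGC6 (1.64 ± 0.12, adjusted p = 0.000172). T, the streak factor Brachyury, was the target that fell in Dnd1-KD, and Pmepa1 was the one that rose there (0.73 ± 0.12). Foxa2, also a marker of endoderm, had levels of 8.15 and 38.6 FPKM in CDGC1, so these libraries differed in some of the targets by more than they did in any member.

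**Figure D4:**
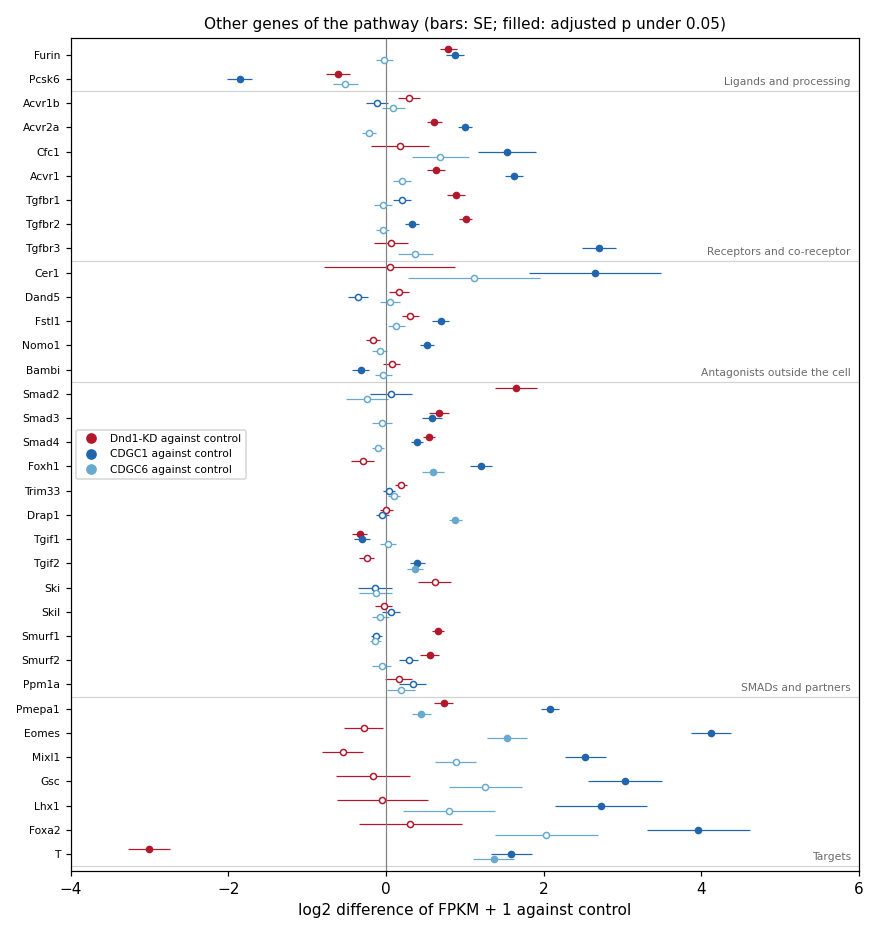
Difference of log2(FPKM + 1) from control (horizontal axis; points, bars are SE, filled where the adjusted p is under 0.05) for the further pathway genes shown, grouped by role, in Dnd1-KD, CDGC1 and CDGC6. The targets at the bottom all lie to the right of 0 in CDGC1, and T lies at -3.00 in Dnd1-KD.

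To find genes with the most similar profile, each profile of log2(FPKM + 1) over the 8 libraries was centred on its mean and the root mean square difference was taken against 10113 candidates. The Lefty pair was nearest to T (0.56), which was at 1.63 and 1.79 FPKM in Dnd1-KD, 53.9 and 77.1 in CDGC1 and 69.1 and 43.7 in CDGC6, against 18.1 and 23.7 in control. Psors1c2 (0.71) and Ppp4r4 (0.75) came next. Tdgf1 was nearest to Ldha (0.20), the lactate dehydrogenase gene, at 384 and 332 FPKM in Dnd1-KD, 1475 and 1648 in CDGC1 and 1519 and 1463 in CDGC6, against 776 and 729 in control. Pfkl, a phosphofructokinase gene (0.22), and Nmral1 (0.23) followed. Nodal was nearest to Cops3 (0.10), a COP9 signalosome subunit gene, Xxylt1 (0.10) and the cyclin-dependent kinase gene Cdk4 (0.10). These are distances within 8 libraries of 4 groups, so they describe the order of groups and little else.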

How the data were processed

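The deposited FPKM values are Cufflinks gene tables of 1 library each, per the file headers, with an interval around each value. Per the submitters' processing notes, mm10, TopHat2, Bowtie, Cuffdiff and Cufflinks were used; roles and versions are not given in the sources used here. Entries without a gene name, 24 date-like names and small RNA genes were left out. Symbols joined in any library formed 1 unit everywhere, and the FPKM of its entries were added up. The test covered units that reached 1 FPKM in 2 or more libraries, 11878 in all, 658 of them with several symbols. Read counts are not given: of fragment numbers below 60 implied by the intervals, 40.5% to 42.5% were whole numbers to within 0.02, and no count model was used.

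Groups were taken from the sample titles. limma 3.58.1 in R 4.3.3 fitted 1 mean per group over all 8 libraries to log2(FPKM + 1), with eBayes trend, two-sided. The code was tested on simulated data. Alternatives were pseudocounts of 0.1 and 5, no filter, a filter of 5 FPKM, quantile and median-ratio scaling, 2-group fits, eBayes without trend, a replicate block, only the highest entry of a unit, and each library left out. Gene positions are from GENCODE vM21 (GRCm38, the assembly of mm10). RefSeq promoters matched 5 of the 10 members by symbol, Nodal, Tdgf1, Inhba, Inhbb and Acvr2b. For Inhba the RefSeq and GENCODE starts lie upstream of the locus in the files, so its promoter was not shown. Transcripts were aligned with Biopython 1.88.

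The members and lists were chosen with earlier results of these data known. Named were all members, Dnd1, the 3 further pathway genes with the smallest p in each comparison (1 of them is counted but not reported here by name), and the 3 nearest profiles of Nodal, the Lefty pair and Tdgf1 among single-symbol units above 0 in all libraries. Foxh1, Foxa2, Acvr1b, the pathway genes named for the filter on low values, the named markers and neighbouring genes were chosen after their values were seen.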

Additional observations from a re-analysis of the deposited data

Results flagged for a closer look

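For 6 of the 9 units the difference from control was not the same in the 2 derived lines. This was read from the test of CDGC1 against CDGC6 in the same limma fit, where 47.1% of all units were called. Values are log2 differences with adjusted p-values. The effect in CDGC1 minus that in CDGC6 was -3.28 for Gdf3 (adjusted p = 3.46e-05), 2.22 for Fst (0.000708), 0.81 for Nodal (0.0101), -0.51 for Smad7 (0.00637), 0.45 for Inhba (0.00600) and 0.33 for Acvr2b (0.0458). For Gdf3 and Smad7 the 2 CDGC1 libraries were below the 2 of CDGC6, and for the other 4 they were above them. For Gdf3, Fst and Smad7 the call held in all 18 alternatives. The calls of Nodal and Inhba were lost in 1 alternative each, and that of Acvr2b in 9. No group has the 4 libraries that a test for a library far from the others needs.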

How the results depend on the processing

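Of the 23 calls among the 36 member results, 13 held in every alternative and 10 were lost in at least 1, and no called difference changed its sign. Those lost are given with their values in the report. They are Inhba in Dnd1-KD, Tdgf1, Inhbb and Smad7 in CDGC1, Fst, Tdgf1 and Acvr2b in CDGC6, and Nodal, Inhba and Acvr2b between the derived lines, where Inhba did not pass with only these 2 groups fitted (adjusted p = 0.0514). With 1 library of a group left out, the lone library is assumed to vary like the others. The counts then ranged from 2 to 4 members, 2 to 9 further pathway genes and 402 to 2837 units in CDGC6 (5, 7 and 2217 with all libraries), and from 8 to 14 pathway genes and 1356 to 4905 units in Dnd1-KD (14 and 4299). Each low end was reached without the first control library. Quantile normalization moved the Inhbb difference of CDGC1 to -0.16, and pseudocount 0.1 to -1.08. The Inhba differences moved by over 1.5 times with the pseudocount, as given in the report, and kept their calls.

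The groups share the replicate numbers 1 and 2, but same-numbered libraries did not deviate together (r across units of -0.06 to 0.12), so the numbers were not used as pairs. With the replicate block, 3 members passed in Dnd1-KD, 8 in CDGC1, 4 in CDGC6 and 6 between the derived lines, Inhbb in CDGC1 (adjusted p = 0.0698) and Acvr2b in CDGC6 (0.0536) being lost. Low values of Inhba rest on few fragments, down to 18.9 implied in the second control library. Inhbb, though also near 1 FPKM, had 44.3 implied fragments in the first CDGC1 library and 353 in the first control library.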

Other observations

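Genes beside the members did not all share their pattern. Tmem63a, a membrane channel gene 3.94 kb from Lefty1, was higher in CDGC1 (2.22) and CDGC6 (1.24), at 3.50 and 4.93 FPKM in Dnd1-KD against 3.31 and 3.72 in control. Sde2, which lies upstream of Lefty2, was higher in Dnd1-KD (0.42) and passed in neither derived line.

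Gdf3 lies in a cluster of pluripotency genes on chromosome 6. Dppa3, an oocyte and germ cell factor gene 16.3 kb from Gdf3, was at 0.0572 and 0.0922 FPKM in CDGC1 and 49.9 and 56.7 in CDGC6, against 21.5 and 21.0 in control. Nanog, 97.4 kb from Gdf3, was at 137 and 122 FPKM in CDGC1 and 129 and 126 in CDGC6, against 134 and 128 in control. Dppa3 was thus low in CDGC1 together with Gdf3 while Nanog kept a level near that of control, a difference of -0.02 that did not pass. Beside Tdgf1, Lrrc2 was lower in CDGC1 (-1.24) and higher in CDGC6 (0.58), where Tdgf1 itself was higher in both.

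Smad2, the receptor-activated SMAD gene, was at 34.7 and 18.2 FPKM in Dnd1-KD, against 7.42 and 7.29 FPKM in control, and at 5.85 to 8.08 FPKM in the derived lines. It was higher in Dnd1-KD by a log2 difference of 1.65, with a wide gap between the 2 Dnd1-KD libraries.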
